A study of Mus musculus with 16 samples.

Results

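Integrin and laminin chain genes were compared between the size-selected fraction of the mouse spleen and whole spleen. They were chosen by gene symbol alone (integrin alpha and beta chains, laminin alpha, beta and gamma chains), which gave 37 genes of 54838: 18 integrin alpha, 8 integrin beta and 11 laminin genes. RNA was sequenced from the spleens of C57BL/6 mice, in 8 size-selected and 8 whole spleen samples that carry the same 8 numbers, 4 male (407, 408, 427 and 435) and 4 female (436, 445, 447 and 460). No genotype other than the strain, no treatment and no age is given in the sources used here. The size-selected cells, which the submitters call spleen glia, are those that stayed on a cell strainer after the minced spleen had been digested with enzymes and its red cells lysed. The labels do not describe how whole spleen was prepared apart from this. Replicates are samples with different numbers, and nothing in the labels says that each number is 1 animal, so p-values measure the spread between these samples.

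Integrins are receptors that join a cell to its surroundings, and each works as a pair of 1 alpha and 1 beta chain. Leukocyte integrins built on the beta2 and beta7 chains bind partners on other cells and guide lymphocytes and myeloid cells through tissue, while most beta1 and several other pairs bind collagen, laminin or proteins with an RGD motif in the matrix. Laminins are trimers of an alpha, a beta and a gamma chain that form the sheet of a basement membrane around vessels, smooth muscle, epithelium and peripheral nerve. In the spleen, the walls of vessels and sinuses and the reticular fibres of the white pulp hold laminin, and the nerves that enter with the arteries are wrapped by glia.

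Of the 37 genes, 34 had enough counts to be tested, 26 were higher in the size-selected samples and 5 were lower (edgeR's quasi-likelihood test, Benjamini-Hochberg adjusted p under 0.05). Over all 14510 genes tested, 37.5% were called higher and 30.4% were called lower. The median log2 fold change, size-selected over whole spleen, was 2.09 over the 34 genes and 0.05 over all genes tested. The 5 lower genes were Itga4, Itgal, Itgae, Itgb7 and Lamb3, and Itgb2, Itgax and Itgb3 were not called. The 8 size-selected values lay above all 8 whole spleen values for 24 of the 34 tested genes, against 23.3% of all genes tested, and below them for 1 (Itga4), against 11.6%. Of the 34 genes, 22 exceeded the filter's cutoff of 0.686 CPM (estimated counts scaled to an equal library size) in all 8 whole spleen samples, and 14 of these were called higher and 5 lower. Of the other 12, 11 exceeded it in all 8 size-selected samples and passed the filter only through that group, where they are high, so they had to differ. Among them are Itga7, Itga8, Itga11, Itgb4, Lama2, Lama3, Lama4, Lama5, Lamb1 and Lamc3, and no count that includes them is read as support. The remaining gene, Itgb8, exceeded it in 7 size-selected and 4 whole spleen samples. Itga10, Itgb6 and Lama1 had too few counts to be tested. In bulk RNA, a difference in the number of cells of a type and one in RNA per cell cannot be told apart.

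**Figure D1:**
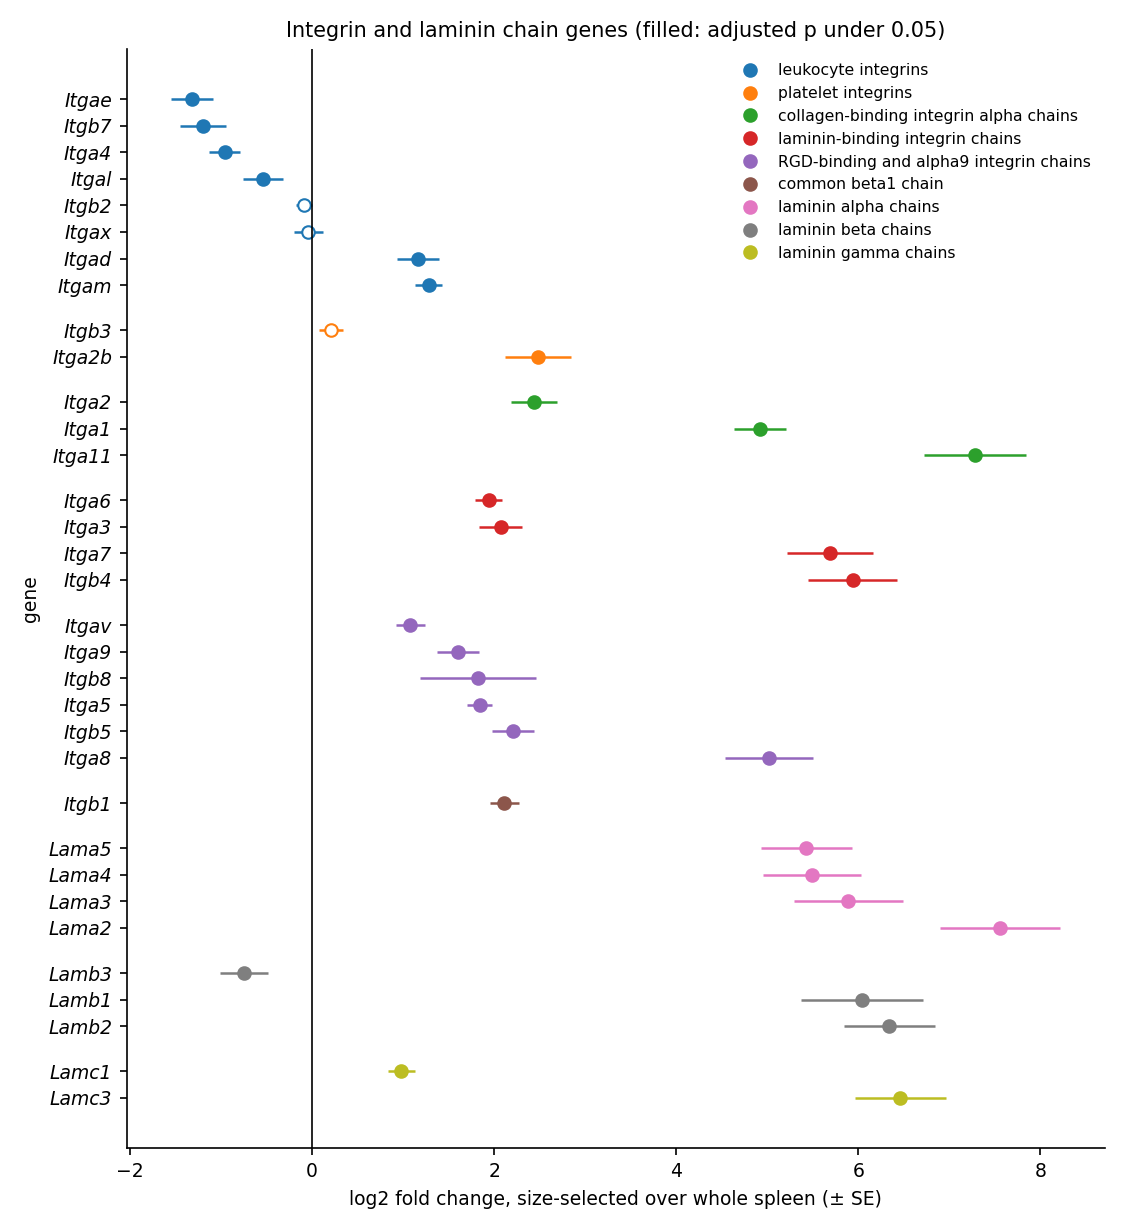
Log2 fold change of 33 tested genes (x axis, size-selected over whole spleen, error bars are SE, 8 samples per group), 1 row per gene, coloured by class; filled points have an adjusted p under 0.05. The leukocyte integrins lie from -1.32 (Itgae) to 1.28 (Itgam), the chains of the collagen-, laminin- and RGD-binding lists all above 1, and the laminin chains between 0.98 and 7.56 except Lamb3 at -0.75. The platelet pair, listed apart, lies at 2.48 (Itga2b) and 0.21 (Itgb3).

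Sox10, a transcription factor gene that defines peripheral glia, averaged 3.5 ± 2.13 CPM (SD, n = 8) in size-selected and 0.0768 ± 0.152 CPM (SD, n = 8) in whole spleen samples. Sox10 exceeded the cutoff in 7 size-selected and 0 whole spleen samples, did not pass the filter and was not tested. The size-selected samples held RNA of this glial gene, beside RNA of other cell types given with the results. Their median sum of peripheral glia markers was 162 CPM, where it was 1560 CPM for fibroblast and 2535 CPM for smooth muscle markers. All 16 libraries held between 12153770 and 19944440 estimated counts. In the size-selected columns the deposited values of 3898 genes carry 1 to 3 multiplying constants between 0.659 and 0.964 that no source used here mentions, and 21 of the 37 genes are among them. Dividing the constants out raised the log2 fold change of the 20 tested genes that carry them by 0.08 to 0.56 and left 26 higher and 5 lower. Whole spleen 427 was the highest of the 8 whole spleen samples in 14 of the 26 genes called higher, and without number 427 in both groups 26 genes were called higher and 4 lower.

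To show what kind of control region these genes have, the 250 bases before the RefSeq start of 3 of them are printed from RefSeq (GRCm38.p6), a myeloid integrin gene that was higher, a lymphocyte integrin gene that was lower and a laminin gene that was higher. They were Itgam (chr7:128062390-128062639, plus strand), Itga4 (chr2:79255176-79255425, plus strand) and Lama2 (chr10:27616943-27617192, minus strand). Capitals mark matches, on either strand, to GAGGAA (bound by PU.1 and other ETS factors), TGTGGT (bound by RUNX factors), GGGCGG (the GC box), TATAAA (the TATA box) or the CArG box of serum response factor.
Itgam: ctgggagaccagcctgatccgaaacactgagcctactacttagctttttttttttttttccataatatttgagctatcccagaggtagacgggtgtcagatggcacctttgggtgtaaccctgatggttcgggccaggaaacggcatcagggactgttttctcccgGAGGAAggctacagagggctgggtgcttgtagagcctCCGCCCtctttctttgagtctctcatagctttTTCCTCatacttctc
Itga4: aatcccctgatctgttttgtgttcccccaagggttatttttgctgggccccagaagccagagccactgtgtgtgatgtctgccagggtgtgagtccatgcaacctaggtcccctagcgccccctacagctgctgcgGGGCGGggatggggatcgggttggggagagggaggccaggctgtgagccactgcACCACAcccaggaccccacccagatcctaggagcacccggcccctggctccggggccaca
Lama2: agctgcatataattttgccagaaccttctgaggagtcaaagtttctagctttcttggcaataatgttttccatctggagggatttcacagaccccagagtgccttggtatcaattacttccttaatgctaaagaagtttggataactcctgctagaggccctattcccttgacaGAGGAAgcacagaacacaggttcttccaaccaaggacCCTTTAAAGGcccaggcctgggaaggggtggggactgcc
The Itgam and Itga4 windows adjoin the gene's start in GENCODE M21 as well. The RefSeq start of Lama2 lies 2816 bases inside the GENCODE gene, so that its window is within the annotated gene, and 7 of the 26 windows of chain genes lie wholly inside the annotated gene.
The Itgam window held GAGGAA 84 bases before the start and, on the other strand, 15 bases before it, with a GC box 47 bases before. The Itga4 window held a GC box 114 bases before the start and TGTGGT on the other strand 60 bases before. The Lama2 window held GAGGAA 76 bases and a CArG box 39 bases before the start. These matches are letters in a window and not bound sites. The RefSeq table matched 23 of the 37 genes, with 26 windows. Of the 18 windows of genes called higher, 11 held GAGGAA, against 23.3% of all 32851 windows, 8 held the GC box (32.7% of all), 1 TGTGGT (14.0% of all), 1 the CArG box (1.47% of all) and 0 TATAAA (12.4% of all). Of the 4 windows of genes called lower, 1 held GAGGAA, 1 TGTGGT and 1 the GC box.

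The beta2 chain gene Itgb2, shared by all beta2 integrins of leukocytes, did not differ detectably between the groups. It ranged from 222 to 307 CPM (median 280) in size-selected samples and from 254 to 358 CPM (median 296) in whole spleen, and the groups overlapped over most of their range. The log2 fold change was -0.09 (SE 0.09, adjusted p = 0.396), and 0.16 with the constants divided out, so it has no settled direction. Its 4 alpha partners did not move together.

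Itgal encodes the alphaL chain of LFA-1, which lymphocytes use to bind ICAM proteins. It ranged from 53.1 to 257 CPM (median 129) in size-selected samples and from 155 to 256 CPM (median 203) in whole spleen. The size-selected samples spread wider and overlapped the whole spleen range, with number 435 highest and number 427 lowest. The log2 fold change was -0.54 (SE 0.22, adjusted p = 0.0345), and Itgal was lower in 7 of 8 pairs. This call held without number 435 (adjusted p = 0.00251) but was lost without any one of the other 7 numbers, with adjusted p from 0.0509 without 460 to 0.094 without 445, and when counts were scaled by library totals alone (adjusted p = 0.134).

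Itgam encodes the alphaM chain of Mac-1, found on neutrophils, monocytes and macrophages. It ranged from 38.7 to 63.9 CPM (median 47.2) in size-selected samples and from 13.2 to 26.2 CPM (median 19.2) in whole spleen. The groups did not overlap, and the log2 fold change was 1.28 (SE 0.15, adjusted p = 3.93e-07). Neutrophil markers went the other way, with 5 of 6 lower (6 with the replicate block) and sums of 124 to 816 CPM in size-selected and 503 to 1843 CPM in whole spleen samples, and none was at 0 in all samples of a group. Of 6 red pulp macrophage markers 3 were called higher and 0 lower, or 5 and 0 with the block, where 37.5% of all genes were called higher. The part of either cell type in the Itgam result was not tested. An annotated gene model, Gm49368, shares exons with Itgam on the same strand, so part of the Itgam counts could be split between them.

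Itgad, the alphaD chain gene that marks red pulp macrophages in the mouse, was also higher. It ranged from 118 to 301 CPM (median 168) in size-selected samples and from 54.98 to 163 CPM (median 81.6) in whole spleen. The ranges overlapped only through whole spleen 427 at 163 CPM, since the next whole spleen value was 90.1. The log2 fold change was 1.16 (SE 0.23, adjusted p = 0.000252), with 8 of 8 pairs higher, and leaving out single numbers gave 1.01 to 1.25. Of 6 red pulp macrophage markers 3 were called higher and 0 lower, or 5 and 0 with the replicate block, where Cd5l went from an adjusted p of 0.123 to 0.0285 and C1qb from 0.0582 to 0.0275 by edgeR. Their sums were 1075 to 3146 CPM in size-selected and 981 to 1661 CPM in whole spleen samples, and none was at 0 in all samples of a group. The 3 size-selected samples with the most Itgad (460, 427 and 435) also had the 3 largest sums, and in whole spleen 427 was highest and 407 lowest in both. The part of these cells in the result was not tested. Itgax, the alphaX chain gene of dendritic cells and some macrophages, ranged from 31.4 to 62.1 CPM in size-selected samples and from 35.9 to 67.98 CPM in whole spleen. Its log2 fold change of -0.04 (SE 0.16, adjusted p = 0.848) turned to 0.08 with library totals.

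Itgam, Itgax and Itgad are neighbours on the plus strand of chromosome 7 (GRCm38), at chr7:128062640-128118491, chr7:128129547-128150657 and chr7:128154376-128223816, and Itgal lies apart at chr7:127296260-127335138. Within these 4 partners of beta2, the share of CPM per kilobase of exon held by Itgad was 50.4% ± 10.6 (SD, n = 8) in size-selected samples against 29.6% ± 6.61 (SD, n = 8) in whole spleen. The share of Itgal was 26.3% ± 9.69 (SD, n = 8) and 48.98% ± 5.86 (SD, n = 8), and that of Itgam 11.7% ± 2.37 (SD, n = 8) and 6.16% ± 0.963 (SD, n = 8). Thus Itgal led the 4 in whole spleen and Itgad in the size-selected samples, a description for which no test was run.

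Both partners of the lymphocyte beta7 chain fell with it. Itgb7, which forms the gut-homing integrins alpha4beta7 and alphaEbeta7, ranged from 46.1 to 198 CPM (median 82.9) in size-selected samples and from 163 to 292 CPM (median 248) in whole spleen. Only size-selected 435, at 198 CPM, reached into the whole spleen range. The log2 fold change was -1.20 (SE 0.25, adjusted p = 0.00028), lower in 8 of 8 pairs. Itga4, the alpha4 chain gene that pairs with beta1 or beta7 and binds VCAM-1 and MAdCAM-1, ranged from 21.1 to 62.0 CPM (median 52.6) in size-selected samples and from 75.2 to 108 CPM (median 93.7) in whole spleen. Its groups did not overlap, and the log2 fold change was -0.96 (SE 0.17, adjusted p = 5.84e-05). Itgae, the alphaE chain gene that binds E-cadherin, ranged from 2.22 to 6.55 CPM in size-selected samples and from 6.49 to 13.0 CPM in whole spleen, where size-selected 435 just passed the lowest whole spleen sample. Its log2 fold change was -1.32 (SE 0.23, adjusted p = 4.75e-05).

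Lymphocyte markers moved with these 3 genes. All 6 T cell markers were called lower, and their summed level was 64.7 to 411 CPM in size-selected and 597 to 898 CPM in whole spleen samples. Of 6 B cell markers 5 were lower (6 with the replicate block), with sums of 883 to 3215 and 5246 to 6477 CPM, and no marker of either list was at 0 in all samples of a group. Size-selected 427 was lowest and 435 highest in the T cell sum, as they were in Itgal, Itgb7 and, at the low end, Itga4. The B cell sum was highest in 408. In whole spleen 0 of 8 samples for Itgal and 1 of 8 for Itgb7 held the same place as in the T cell sum, and 427 was highest in both genes where 436 was highest in the sum. The part of these markers in the result was not tested.

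**Figure D2:**
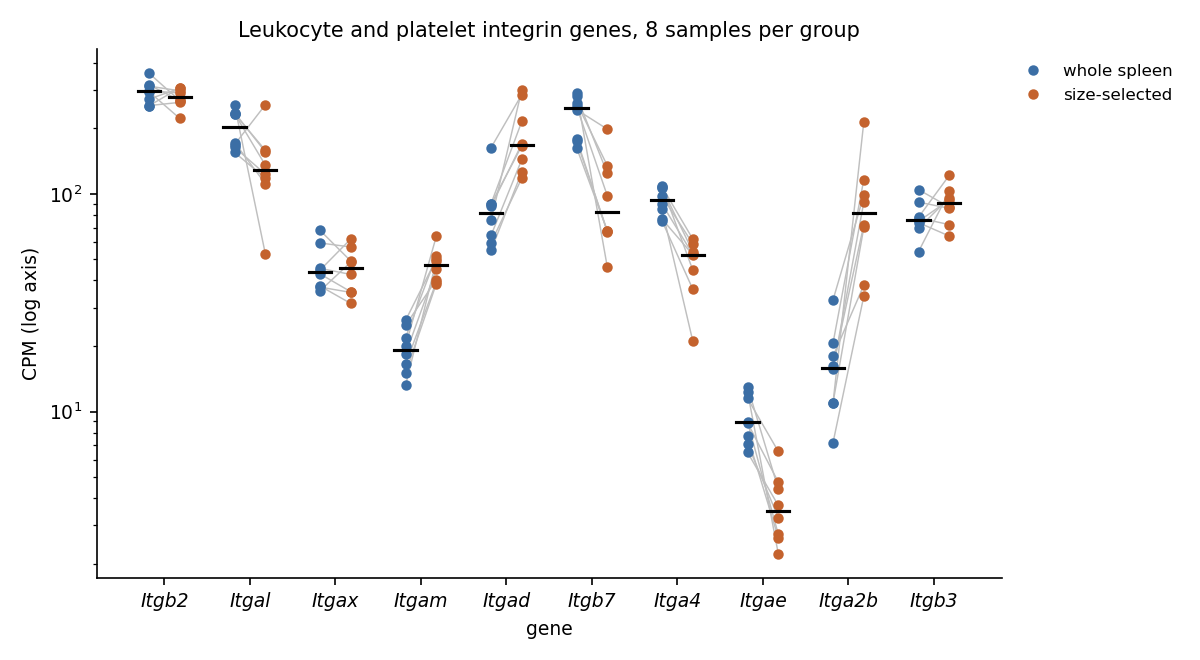
CPM (log axis) of 8 leukocyte and 2 platelet integrin genes in the 8 whole spleen and 8 size-selected samples; grey lines join samples of the same number and black bars are medians. Itgam and Itga2b lie higher without overlap in size-selected samples, Itga4 lies lower without overlap, and Itgb2, Itgax and Itgb3 overlap.

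The 2 chains of the platelet fibrinogen receptor differed. Itga2b, the alphaIIb chain gene of platelets and megakaryocytes, ranged from 33.9 to 214 CPM (median 81.8) in size-selected samples and from 7.20 to 32.6 CPM (median 15.9) in whole spleen. The groups did not overlap, and the log2 fold change was 2.48 (SE 0.36, adjusted p = 6.25e-06). Itgb3, its beta3 partner, which also pairs with alphaV on other cells, ranged from 64.0 to 122 CPM (median 90.4) in size-selected samples and from 54.3 to 105 CPM (median 76.2) in whole spleen. Its groups overlapped almost fully, at a log2 change of 0.21 (SE 0.13, adjusted p = 0.166). Without number 445 that gene was called higher (log2 fold change 0.32, adjusted p = 0.0486), and it was not called in the other 7 leave-one-out fits.

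All 8 megakaryocyte and platelet markers were called higher, with sums of 69.98 to 503 CPM in size-selected and 51.0 to 184 CPM in whole spleen samples, and none was at 0 in all samples of a group. The order of the 8 size-selected samples by Itga2b was the same as their order by this sum, from 460 (33.9 and 69.98 CPM) to 436 (214 and 503 CPM), while in whole spleen 2 of 8 samples held the same place in both orders. For Itgb3, 2 of 8 size-selected and 0 of 8 whole spleen samples did. The part of these cells in the 2 results was not tested.

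The collagen receptors, whose alpha chains pair with beta1, were higher in all 3 testable cases, where 37.5% of all genes were called higher, and 2 of the 3 exceeded the filter's cutoff in all 8 whole spleen samples. Itga1, the alpha1 chain gene common on smooth muscle and small vessels, ranged from 48.9 to 143 CPM (median 95.9) in size-selected samples and from 1.87 to 6.45 CPM (median 2.95) in whole spleen. Itga11, the alpha11 chain gene of fibroblasts, ranged from 9.55 to 29.9 CPM (median 14.4) in size-selected samples, and in whole spleen it was at 0 in 5 of 8 samples and reached 0.431 CPM. Itga2, the alpha2 chain gene of platelets and epithelium, ranged from 7.73 to 25.96 CPM (median 15.2) in size-selected samples and from 1.48 to 4.24 CPM (median 3.19) in whole spleen. No group pair overlapped, and the log2 fold changes were 4.92 (SE 0.29, adjusted p = 2.03e-10), 7.28 (SE 0.56, adjusted p = 2.62e-09) and 2.44 (SE 0.25, adjusted p = 7.58e-08). Itga11 rests on 12 estimated counts over all 8 whole spleen samples, and passed the filter only through the size-selected samples, so the size of its fold is loosely set and was 7.87 without number 436. Itga10, the alpha10 chain gene of cartilage, was not tested and had 3.01 to 26.0 estimated counts per size-selected sample and 6.90 in all 8 whole spleen samples together.

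All 4 chains of the laminin receptors were higher, where 37.5% of all genes were, but Itgb4 and Itga7 passed the filter only through the size-selected samples. Itga6, the alpha6 chain gene, ranged from 113 to 224 CPM (median 186) in size-selected samples and from 34.96 to 60.8 CPM (median 45.4) in whole spleen. Itgb4, the beta4 chain that pairs only with alpha6 and anchors epithelial and Schwann cells to laminin, ranged from 15.96 to 65.03 CPM (median 22.1) in size-selected samples and from 0 to 0.979 CPM (median 0.409) in whole spleen. The groups did not overlap in either gene, with log2 fold changes of 1.94 (SE 0.15, adjusted p = 2.92e-09) and 5.94 (SE 0.49, adjusted p = 5.72e-09). Itga7, the alpha7 chain gene of muscle, ranged from 21.3 to 111 CPM (median 53.5) in size-selected samples and from 0.064 to 2.61 CPM (median 1.24) in whole spleen. Its log2 fold change was 5.69 (SE 0.47, adjusted p = 6.16e-09). Itga3, the alpha3 chain gene of epithelial and endothelial cells, had medians of 20.9 and 4.25 CPM and no overlap, at a log2 change of 2.07 (SE 0.24, adjusted p = 3.57e-07).

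The 2 size-selected samples with the most Itgb4, 436 at 65.03 and 427 at 48.4 CPM, also had the largest sums of peripheral glia markers, 645 and 269 CPM, and the 4 highest samples were the same in both orders. In whole spleen 427 was highest in both, and 2 of 8 samples held the same place. The match was not particular to glia. Numbers 436 and 427 also had the largest size-selected sums of fibroblast (3337 and 2872 CPM) and megakaryocyte and platelet markers (503 and 458 CPM). The same place was held by 6 of 8 size-selected samples for Itgb4 and the glia sum. It was also 6 of 8 for Itga1 and the endothelial sum and for Lama2 and the fibroblast sum (2 and 0 in whole spleen). The peripheral glia sum was 91.7 to 645 CPM in size-selected and 7.85 to 22.6 CPM in whole spleen samples, and 9 of its 11 markers were tested and called higher. Only 1 of these 9 exceeded the filter's cutoff in all 8 whole spleen samples, so nothing is read from that count. Markers of smooth muscle (829.5 to 3895 against 11.2 to 76.95 CPM), fibroblasts (949 to 3337 against 4.33 to 51.7 CPM) and endothelium (725 to 1899 against 84.6 to 203 CPM) were called higher in 6 of 6, 6 of 6 and 7 of 7, of which 3, 2 and 5 exceeded the cutoff in all 8 whole spleen samples. No marker of these 4 lists was at 0 in all samples of a group. Which of these cells carry the matrix-binding chains was not tested.

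**Figure D3:**
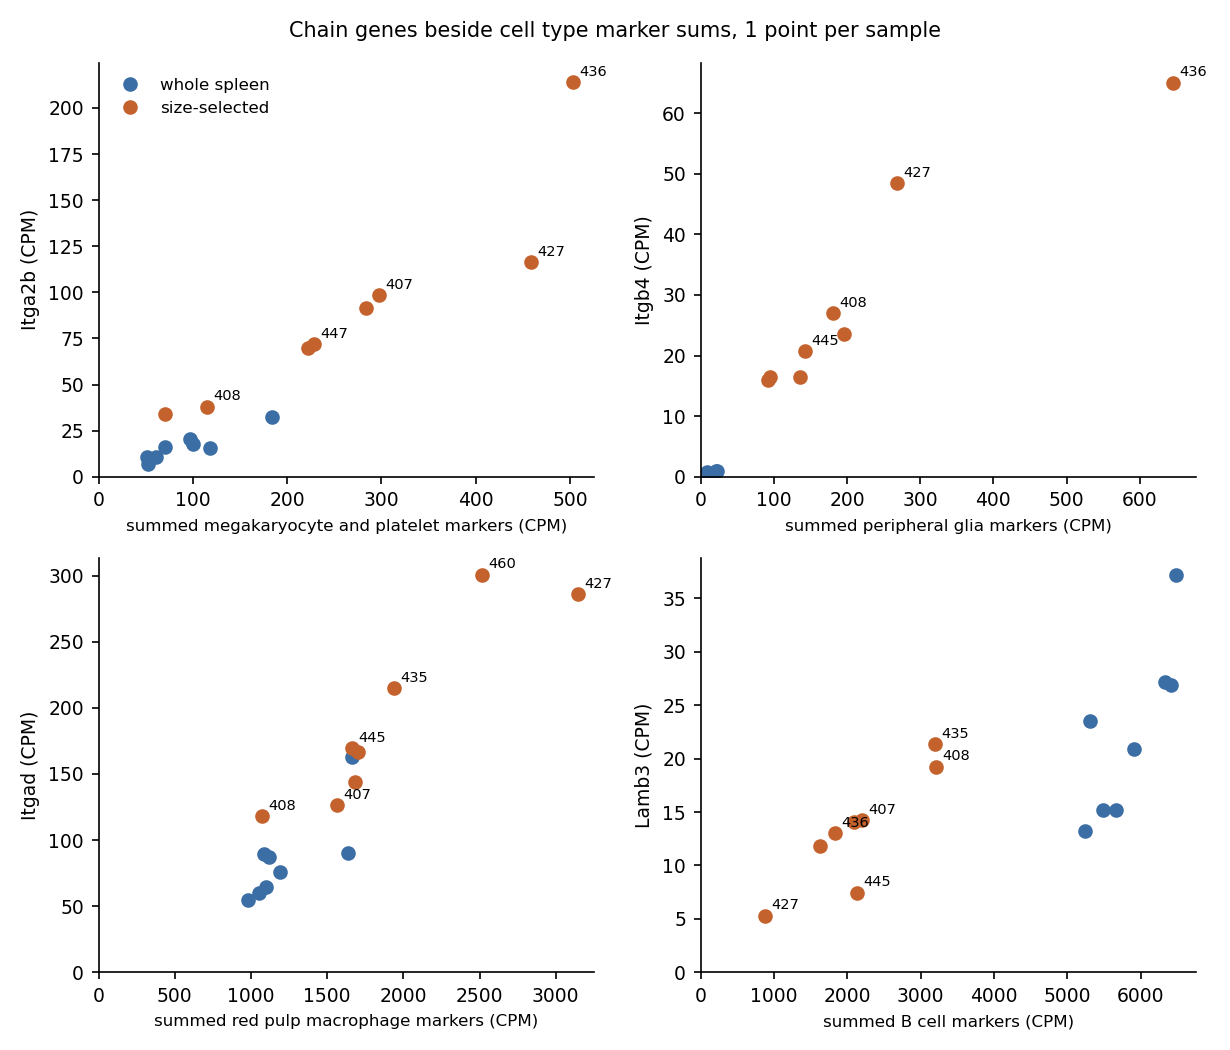
CPM of 4 chain genes (y axes) against the summed CPM of markers of a cell type (x axes), 1 point per sample, 8 per group; some size-selected points carry their number. The size-selected points for Itga2b stand in the same order as the megakaryocyte and platelet sum, sample 436 is highest in Itgb4 and the glia sum, and whole spleen 427 (163 CPM) is the whole spleen point that reaches the size-selected range of Itgad.

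Of the genes listed for RGD proteins and the alpha9 chain, 6 of 6 tested were higher, where 37.5% of all genes were. That list leaves out the platelet pair, of which Itga2b was higher and Itgb3, which also pairs with alphaV, was not called. Of the 6, 4 exceeded the filter's cutoff in all 8 whole spleen samples, and Itga8 passed only through the size-selected samples. Itga8, the alpha8 chain gene that binds nephronectin, ranged from 11.4 to 61.7 CPM (median 38.4) in size-selected samples and from 0.131 to 4.16 CPM (median 0.709) in whole spleen. Its log2 fold change was 5.02 (SE 0.48, adjusted p = 3.92e-08), or 5.58 with the constants divided out. Itgb5, the beta5 chain gene that pairs with alphaV, ranged from 67.3 to 202 CPM (median 123) in size-selected samples and from 16.4 to 51.98 CPM (median 23.7) in whole spleen, and its log2 fold change was 2.21 (SE 0.23, adjusted p = 1.13e-07). Neither gene overlapped between groups, although whole spleen 427 was the highest whole spleen sample in both. The fibronectin receptor chain gene Itga5 had a log2 change of 1.84 (SE 0.14, adjusted p = 2.06e-09), Itga9 (a receptor chain for tenascin and VCAM-1) one of 1.60 (SE 0.23, adjusted p = 4.64e-06) and Itgav (the alphaV chain) one of 1.08 (SE 0.16, adjusted p = 1.17e-05). All 3 lay higher without overlap, with medians of 76.2, 60.6 and 112.5 CPM in size-selected and 22.1, 21 and 58.9 CPM in whole spleen samples.

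The least certain of the calls in this class was Itgb8, whose product pairs with alphaV to activate latent TGF-beta. It ranged from 0.658 to 13.8 CPM (median 1.66) in size-selected samples and from 0.210 to 2.23 CPM (median 0.728) in whole spleen, and 6 of 8 pairs were higher. Size-selected 436 (13.8 CPM) and 408 (6.99 CPM) stood far above the other 6 size-selected samples, which overlapped whole spleen. The log2 fold change was 1.82 (SE 0.64, adjusted p = 0.0167), and the call was lost without number 408 (adjusted p = 0.0597) and by limma-voom (adjusted p = 0.0587). Itgb6, an epithelial chain gene, was not tested: it was listed at 0 in all 8 whole spleen samples and in 5 size-selected ones, and reached 32 counts.

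Itgb1, the beta1 chain shared by most matrix receptors and by alpha4, ranged from 376 to 697 CPM (median 532) in size-selected samples and from 86.8 to 171 CPM (median 123) in whole spleen. The groups were far apart, at a log2 change of 2.11 (SE 0.16, adjusted p = 2.74e-09). Per kilobase of exon, Itgb1 was on average the most abundant integrin beta gene in size-selected samples and led in 7 of 8 (Itgb2 led in 435), with 41.9% ± 7.15 (SD, n = 8) of all beta chain CPM per kilobase, against 13.2% ± 2.60 (SD, n = 8) in whole spleen. In size-selected 408 Itgb1 and Itgb2 were near equal (95.51 and 95.18 CPM per kilobase). With the constants divided out Itgb2 led there too (110.7 against 94.7). In whole spleen Itgb2 led with 41.8% ± 1.36 (SD, n = 8), next to Itgb7 with 35.8% ± 4.62 (SD, n = 8), and in size-selected samples these were 29.0% ± 3.40 (SD, n = 8) and 11.7% ± 5.93 (SD, n = 8). Itgb5 took 11.1% ± 2.71 (SD, n = 8) in size-selected and 3.30% ± 1.02 (SD, n = 8) in whole spleen samples. Among integrin alpha genes, Itgal held the most in whole spleen, 32.4% ± 3.57 (SD, n = 8), and Itgad on average the most in size-selected samples, 22.3% ± 5.43 (SD, n = 8), leading in 7 of 8 (Itga2b led in 436). Itga6 held 10.5% ± 1.90 (SD, n = 8) of the alpha chain CPM per kilobase in size-selected and 5.41% ± 0.918 (SD, n = 8) in whole spleen samples, and its share depended on the transcript length used. With the longest transcript as length, Itgad averaged 18.2% and Itga6 16.1% in size-selected samples. Itga6 then passed Itgad in size-selected 407, so the count of samples that Itgad led depends on the length. Shares of a class are linked, so a larger share of one chain lowers the others, and no test was run on them.

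**Figure D4:**
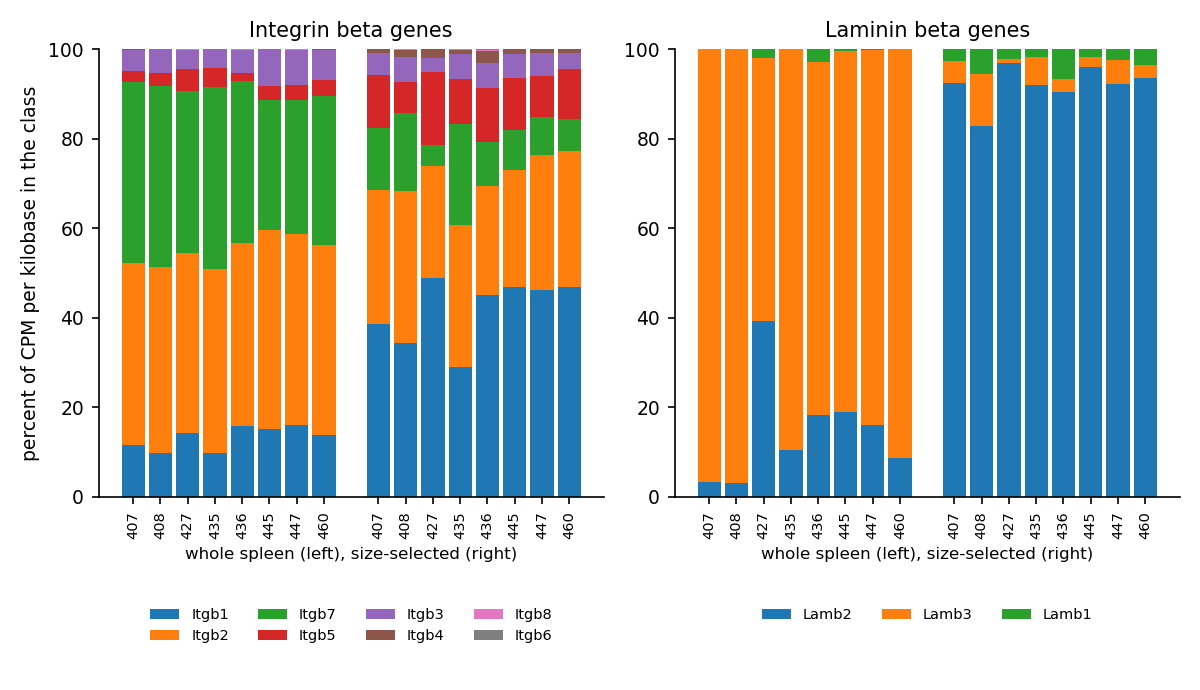
Percent of the summed CPM per kilobase of exon held by each gene of 2 classes (y axis), 1 stacked bar per sample, 8 whole spleen samples at left and 8 size-selected at right of each panel. Itgb1 and Lamb2 take larger shares in the size-selected bars, and Itgb7 and Lamb3 smaller ones.

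The laminin alpha chains, which bind cells through integrins and dystroglycan, were near 0 in whole spleen. Lama4, an alpha chain of vessel walls, ranged from 14.7 to 40.1 CPM (median 19.1) in size-selected samples and from 0 to 2.04 CPM (median 0.299) in whole spleen. Lama5, of vessels and epithelium, ranged from 6.23 to 20.8 CPM (median 11.8) and from 0 to 0.898 CPM (median 0.234). Lama2, the alpha chain of muscle and Schwann cell basement membrane, ranged from 4.29 to 27.9 CPM (median 8.34) in size-selected samples, and in whole spleen it was at 0 in 6 of 8 samples and at most 0.360 CPM. In each of the 3 the groups were apart. Lama3, of epithelial basement membrane, ranged from 1.45 to 8.70 CPM (median 3.57) in size-selected samples and from 0 to 0.216 CPM in whole spleen.

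The log2 fold changes were 5.49 for Lama4 (SE 0.54, adjusted p = 4.91e-08), 5.43 for Lama5 (SE 0.50, adjusted p = 2.16e-08), 7.56 for Lama2 (SE 0.66, adjusted p = 1.13e-08) and 5.89 for Lama3 (SE 0.60, adjusted p = 8.55e-08). All 4 passed the filter only through the size-selected samples. Over all 8 whole spleen samples Lama2 had 6 estimated counts and Lama3 7, so that these folds are loosely set; leaving out each number in turn gave 7.30 to 8.99 for Lama2 (the highest without 436) and 5.24 to 6.15 for Lama4 (the highest without 427). Among alpha chains in size-selected samples, Lama4 held 46.8% ± 5.84 (SD, n = 8) of the CPM per kilobase, Lama5 27.3% ± 4.67 (SD, n = 8), Lama2 15.8% ± 4.82 (SD, n = 8) and Lama3 9.44% ± 4.89 (SD, n = 8). Lama1, the embryonic alpha chain gene, was not tested: it was listed at 0 in all 8 whole spleen samples and had at most 19.6 estimated counts in a size-selected sample.

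The beta chains split. Lamb2, the beta2 chain gene of vessel walls and nerve, ranged from 126 to 487 CPM (median 293) in size-selected samples and from 0.855 to 14.4 CPM (median 2.74) in whole spleen. Lamb1, the beta1 chain gene, ranged from 8.63 to 45.1 CPM (median 12.8) in size-selected samples and from 0 to 1.14 CPM in whole spleen. Neither gene overlapped, and the log2 fold changes were 6.34 (SE 0.50, adjusted p = 3.25e-09) and 6.04 (SE 0.67, adjusted p = 2.64e-07). Without number 427 they were 6.93 and 6.91, and Lamb1, which passed the filter only through the size-selected samples, rests on 27 counts over all whole spleen samples. The highest whole spleen value of Lamb2 came from sample 427, and the highest size-selected value of Lamb1 from sample 436.

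Lamb3, the beta chain that joins the Lama3 product in the epithelial laminin, fell. It ranged from 5.30 to 21.3 CPM (median 13.6) in size-selected samples and from 13.2 to 37.2 CPM (median 22.2) in whole spleen. The groups overlapped between 13.2 and 21.3 CPM, but Lamb3 was lower in 8 of 8 pairs. Pair 436 was near a tie (13.06 size-selected against 13.23 CPM whole spleen), so that count of pairs depends on the scaling. The log2 fold change was -0.75 (SE 0.26, adjusted p = 0.0168), between -0.84 and -0.62 in the 8 fits that each leave out a number, and it missed the threshold with library totals (-0.60, adjusted p = 0.0558). The 3 size-selected samples with the most Lamb3 (435, 408 and 407) were those with the largest B cell marker sums, and likewise the 3 whole spleen samples (408, 407 and 435). Size-selected 427 was lowest in both measures, at 5.30 CPM of Lamb3 and a sum of 883 CPM. The part of B cells in this result was not tested.

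Its partner chain gene Lama3 was called in the opposite direction. Lama3 passed the filter only through the size-selected samples and had to be higher there, so no contrast is read from the 2 calls. Among the gamma chains, Lamc1, the one in most laminins, ranged from 68.2 to 118 CPM (median 88.1) in size-selected samples and from 29.1 to 65.6 CPM (median 46.4) in whole spleen. It had the smallest change among the laminin genes called higher, 0.98 (SE 0.15, adjusted p = 1.81e-05), without overlap. Lamc1 lies on the minus strand of chromosome 1, at chr1:153218922-153332786 (GRCm38). Lamc3, a gamma chain of nerve, vessel and reproductive tissue, ranged from 18.6 to 75.2 CPM (median 40.5) in size-selected samples and from 0 to 1.96 CPM (median 0.292) in whole spleen. Its log2 fold change was 6.46 (SE 0.50, adjusted p = 2.98e-09).

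**Figure D5:**
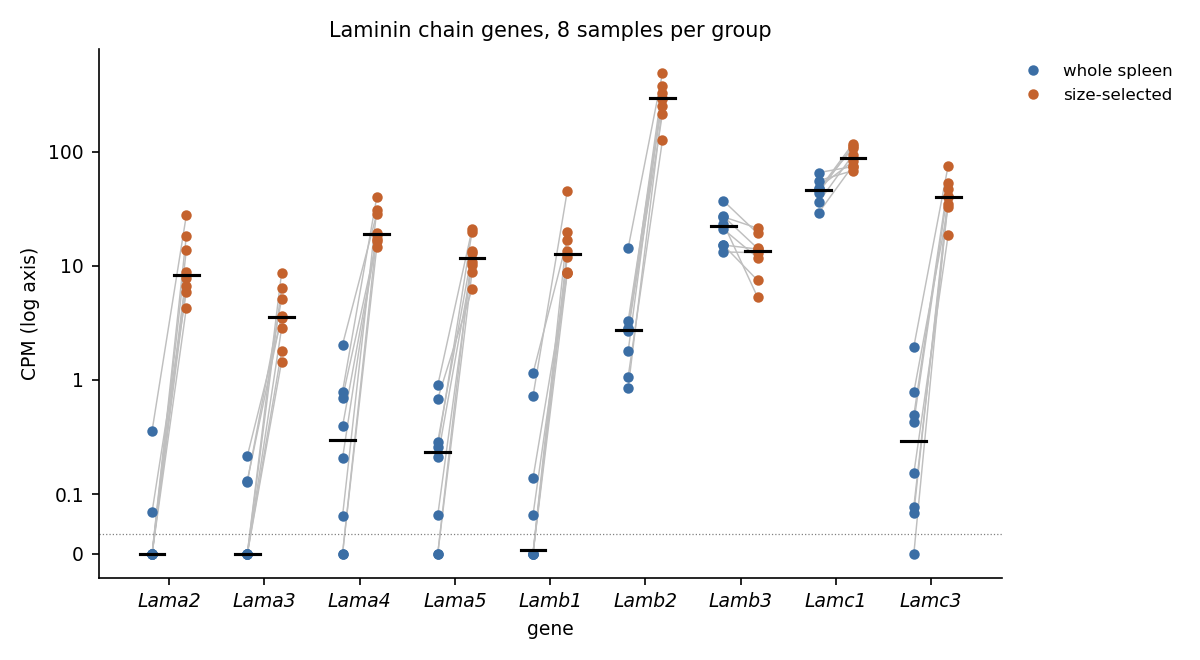
CPM (log axis, with 0 drawn below the dotted line) of 9 laminin chain genes in the 8 whole spleen and 8 size-selected samples; grey lines join samples of the same number and black bars are medians. Lamb3 falls in 8 of 8 pairs (436 nearly level), Lamc1 is the only other gene above 10 CPM in all 8 whole spleen samples, and of the other 7 only Lamb2 (up to 14.4 CPM) passes 2.04 CPM there.

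In sum over the 11 genes, laminin CPM per kilobase was 75.4 ± 23.4 (SD, n = 8) in size-selected and 9.85 ± 2.33 (SD, n = 8) in whole spleen samples. In whole spleen this total was mostly Lamc1, 57.5% ± 8.96 (SD, n = 8), and Lamb3, 34.2% ± 8.23 (SD, n = 8), with all 5 alpha chains together at 0.0786 ± 0.0795 (SD, n = 8) CPM per kilobase. In size-selected samples Lamb2 alone was 63.6% ± 5.52 (SD, n = 8). Among beta chains Lamb2 held 92.1% ± 4.29 (SD, n = 8) in size-selected and 14.7% ± 11.7 (SD, n = 8) in whole spleen samples, and Lamb3 4.66% ± 3.32 (SD, n = 8) and 84.6% ± 12.4 (SD, n = 8). Of the whole laminin total, Lamc3 held 9.23% ± 1.58 (SD, n = 8) in size-selected and 0.828% ± 0.940 (SD, n = 8) in whole spleen samples. In both fractions the alpha chain genes had the lowest summed level of the 3 chain types.

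Genes that work with these chains were read from 4 lists, and their counts stand against 37.5% of all genes called higher and 30.4% called lower. All 10 basement membrane partners of laminin were higher, among them the collagen IV chain genes Col4a2 (log2 fold change 5.47, SE 0.33, adjusted p = 2.32e-10) and Col4a1 (5.46, SE 0.33, adjusted p = 2.25e-10), which form the second network of a basement membrane. Of 8 matrix ligands of integrins, 7 were tested, 6 were higher and 0 lower, with the largest changes in Tnc (tenascin C, 9.95, SE 0.75, adjusted p = 2.16e-09) and Col1a1 (a collagen I chain, 7.0, SE 0.46, adjusted p = 5.20e-10). Tnc had 3 counts in total over the 8 whole spleen samples, so the size of its fold is only loosely set: its log2 value was 9.18 without number 436 and 10.98 without 447. Size-selected 436 had 118.5 CPM of Tnc, where the median of the 8 was 21.6. Of the 7 tested matrix ligands 3 exceeded the filter's cutoff in all 8 whole spleen samples, against 9 of the 10 basement membrane partners, and the others passed through the group where they are high. Npnt, the ligand of the alpha8 pair, was chosen for that role and changed by 6.21 on the log2 scale (SE 0.38, adjusted p = 2.25e-10). It exceeded the cutoff in 5 whole spleen and 8 size-selected samples, so Npnt too passed only through the group where it is high.

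Of 8 surface ligands of leukocyte integrins, 6 were higher and 0 lower, and 7 were higher with the constants divided out, where Icam2 went from a log2 fold change of 0.08 (adjusted p = 0.621) to 0.79 (adjusted p = 0.000106) by edgeR. Jam2, an endothelial junction protein gene, had a log2 change of 5.32 (SE 0.29, adjusted p = 1.07e-10), and Madcam1, the ligand of alpha4beta7, one of 4.66 (SE 0.48, adjusted p = 8.57e-08). The beta7 pair's ligand was thus higher in the samples where its chains were lower. Of 20 genes that bind integrin tails or build adhesion plaques, 19 were tested, 13 were higher and 1 lower, against the same 37.5% and 30.4% of all genes. The higher count was 14 with the replicate block, which added Tln1, and 15 with the constants divided out, which added Tln1 and Parvb. With both together Parvb missed the threshold (adjusted p = 0.0526 by edgeR). Of the tested genes of these lists, 6 of 8 and 15 of 19 exceeded the cutoff in all 8 whole spleen samples. Parva and Lims2, parts of the complex around integrin-linked kinase, had log2 fold changes of 5.83 (SE 0.36, adjusted p = 2.52e-10) and 5.80 (SE 0.56, adjusted p = 4.18e-08). Ptk2b, the focal adhesion kinase relative common in blood cells, was the lower one, at -0.81 (SE 0.16, adjusted p = 0.000168).

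The authors' deposited table, which lists 2201 genes called higher in the size-selected group, holds 13 of the 37 genes, 5 integrins and 8 laminins. By edgeR here 5446 of 14510 genes (37.5%) were called higher, 26 of them chain genes, so the authors' list is narrower. The chain genes called higher here but absent from it had edgeR log2 fold changes of at most 2.48 (Itga2b). In the authors' deposited table Lama2 had a log2 fold change of 7.91, Itga11 7.12, Lamc3 6.45 and Lamb2 6.08. The authors' mean for Lamb2 in that deposited table was 80.8 TPM (a level scaled for gene length and depth) in size-selected and 0.901 TPM in whole spleen samples. The fold changes of the authors' deposited table lay within 0.5 of the edgeR values for 9 of the 13. Itga8 and Lama5 differed by more than 1, with 3.51 and 3.88 in the authors' deposited table against 5.02 and 5.43 by edgeR and 4.98 and 5.44 by DESeq2 on the deposited counts. With the constants divided out their edgeR values were 5.58 and 5.82, further from the deposited ones, and no reason for the gap was tested.

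Sex was compared within each fraction, 4 female against 4 male samples. No chain gene was called by edgeR in whole spleen, where 25 were tested and 0.194% of all genes were called, although 8 had an unadjusted p under 0.05, as had 16.1% of all genes (5 and 10.4% without whole spleen 445). The nearest was Lamb3, with a log2 fold change, female over male, of -0.83 (adjusted p = 0.0759). DESeq2 called 3 lower in females (Lamb3, Itgb7 and Itga2b), against 2.2% of all genes, and a fit without the count filter 2 (Lamb3 and Itga2b), against 0.642%, named here after their values were seen. In size-selected samples none of 35 tested was called, against 0.0397% of all genes. The nearest was Itgav at 0.68 (adjusted p = 0.965), 2 genes had an unadjusted p under 0.05 (4.18% of all genes had), and DESeq2 called 0 (0.145% of all genes), with Itgav nearest at an adjusted p of 0.058. Without size-selected 427, 14 of the 35 had an unadjusted p under 0.05, as had 12% of all genes, and none was called (smallest adjusted p by edgeR 0.227, Itgb7 at -1.08). Without any other size-selected sample 1 to 3 did. The difference in the sex effect between fractions gave no call among 35 genes (0.0% of all genes called), with 3 at an unadjusted p under 0.05 (4.72% of all genes) and 0 called by DESeq2 (0.019% of all genes). With the number as a block, 4 of the 35 had an unadjusted p under 0.05, as had 935 of all 15760 genes. None of the 35 was called (smallest adjusted p by edgeR 0.578, Itga8), and 3 of all genes were.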

How the data were processed

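The authors' deposited table gives estimated counts per gene and sample, made with Trim Galore, STAR and RSEM on mm10, per the submitters' processing notes. A second deposited table holds the authors' own comparison, with log2 fold changes, adjusted p-values and mean TPM per group, per the file headers. Estimated counts were rounded and tested with edgeR 4.0.16 in R 4.3.3 (filterByExpr with a minimum count of 10, TMM scaling, quasi-likelihood F test), fitted to all genes with Benjamini-Hochberg adjustment. Size-selected was compared with whole spleen in 1 fit of the 16 samples with no covariate, and the sexes within the 8 samples of a fraction. CPM values use TMM-scaled totals, and CPM per kilobase divides by the exon length of GENCODE M21 on GRCm38. A standard error is the log2 fold change divided by the square root of its F statistic. Depth was 12153770 to 19944440 counts per sample, and counting error of low genes follows from the counts given.

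The same number was given to 1 sample of each group. Samples with the same number deviated together, with correlations of 0.120 to 0.375 (mean 0.208) against a mean of -0.0287 for other pairs, so the numbers pair the samples. A fit with the number as a block was an alternative. The constants in the size-selected columns were found from the values and divided out as another alternative, after the search had been tested on simulated data. The other alternatives were RLE scaling, library totals (added after seeing the data), no filter, at least 1 CPM in 8 samples, DESeq2 1.42.0, limma-voom (limma 3.58.1), leaving out each number, and the longest transcript as length. All but 1 of the 37 chain genes, which is counted but not reported here, are described, with 2 genes per list of partners that had the largest change in each direction. The members and all lists were chosen with earlier results of these data known. Marker lists not quoted with a result (dendritic cell, mesothelial, myelinating Schwann cell, erythroid and dissociation response) had 1, 5, 4, 0 and 7 genes called higher and 3, 0, 0, 3 and 1 lower, or 4, 0, 0, 6 and 1 lower with the block. No mesothelial gene exceeded the filter cutoff in all 8 whole spleen samples. Exons of Itgam, Itga1, Itga10 and Itgad overlap other gene models on the same strand, and those of Itga4, Itga7, Itga8, Itgad, Itgav, Itgb4, Lama2, Lama3 and Lamc3 on the opposite one. Whether counting used strand is not given in the sources used here, so these counts are less certain.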

Additional observations from a re-analysis of the deposited data

Results flagged for a closer look

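In 66 groups of 8 samples (33 genes in 2 fractions), the highest or lowest sample was compared with the others, and 11 samples stood apart by Dixon's 95% criterion, where chance flags about 1 in 20 groups, or 3.3 here. Whole spleen 427 was the highest sample in 7 of them. It had 163 CPM of Itgad, where the other 7 whole spleen samples had 55.0 to 90.1. It had 6.45 CPM of Itga1 (others at most 3.85), 4.16 of Itga8 (others at most 1.40) and 52.0 of Itgb5 (others at most 32.9). Among laminin genes it had 2.04 CPM of Lama4 (others at most 0.791), 14.4 of Lamb2 (others at most 3.30) and 1.96 of Lamc3 (others at most 0.784). The same sample had the highest whole spleen sums of endothelial (203 CPM), fibroblast (51.7 CPM), smooth muscle (76.95 CPM), red pulp macrophage (1661 CPM), peripheral glia (22.6 CPM), myelinating Schwann cell (159 CPM) and mesothelial markers (3.02 CPM), and the part of these in the values was not tested.

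Size-selected 436 stood apart in Itga2b, at 214 CPM (next 116), and in Lamb1, at 45.1 CPM (next 19.8). It had the highest size-selected sums of megakaryocyte and platelet (503 CPM), fibroblast (3337 CPM), peripheral glia (645 CPM) and myelinating Schwann cell markers (569 CPM). The other 2 were in whole spleen. Sample 445 had 82.0 CPM of Itgav (next 61.9), and sample 436 had 0.359 CPM of Lama2 (next 0.0701). The last value rests on few counts, since Lama2 had 6 estimated counts over all whole spleen samples.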

How the results depend on the processing

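Of the 34 tested genes, 28 kept their direction and their side of the threshold under all 17 alternatives, and 560 of 578 values did. The count of genes called higher stayed at 26 and of genes called lower at 5 with the replicate block, and with restored counts with or without it, and the block changed no call among the chain genes. With library totals alone, which moved the median log2 fold change of all genes from 0.05 to 0.175, 3 genes were called lower, as Itgal and Lamb3 missed the threshold. Itgax turned to 0.08 with library totals, 0.05 without number 427 and 0.01 without 445, in a leave-one-out range of -0.12 to 0.05. Itgb2 turned to 0.04 with library totals, and to 0.16 with restored counts and 0.16 with restored counts and the block. None of these values was called. Of the adhesion plaque genes, 2 were called lower with restored counts and the replicate block, against 1 in the reported fit, and 14 and 15 were called higher with the block and with restored counts, against 13. The number of chain genes called lower in female whole spleen was 0, but 2 with no count filter, 3 with DESeq2 and 0 to 1 when 1 sample was left out (Lamb3 without 427, Itgb7 without 436). With the longest transcript as length, Itga6 held 16.1% of the alpha chain level in size-selected and 8.82% in whole spleen samples, and Lama4 held 59.0% and Lama5 17.4% of the laminin alpha level, because the lengths differ. For other changes the cause was not tested. Depth limits the 11 genes that passed the filter only through the size-selected group, and they had to be higher there. Their whole spleen totals ran from 6 (Lama2) to 124.96 estimated counts (Itga8), so the size of the fold is least sure at the low end.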
